A study of Homo sapiens with 5 samples.

Results

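The interleukin-1 (IL-1) family was followed in MCF10A-SAM cells in which the JUN gene had been activated through its own promoter. The family was taken as 10 genes, chosen by symbol from a table of 23459 genes: the ligands IL1A, IL1B, IL18, IL33 and IL36G, the antagonist IL1RN, the receptors IL1R1, IL1RAP and IL1RL1 and the decoy receptor IL1R2. All 10 had a row in the table. MCF10A is an immortalised human mammary epithelial line, and SAM cells are single clones of it, picked after infection with the CRISPR activators dCas9-VP64 and MCP-p65-HSF1, which cells of both groups carry. Whether all libraries came from the same clone was not given in the sources used here. The control group held 3 libraries of cells given a non-targeting guide (NTC), and the JUN group held 2 libraries of cells given the guide sgJUN#1. Both were grown in the same medium with horse serum, insulin, hydrocortisone, cholera toxin and EGF, and the time from infection to harvest was not given. The study calls its replicates biological, but the number it gives for this comparison is not that of the NTC libraries labelled, and all of these were used here. The labels do not say that replicates came from separate cultures, and p-values measure the spread between these libraries. JUN is a DNA-binding subunit of the transcription factor AP-1, and the comparison asks which transcripts differ when it is activated.

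IL-1 ligands are alarm signals of barrier tissue. IL-1α (from IL1A) and IL-1β (from IL1B) bind the receptor IL1R1, which then recruits the shared co-receptor IL1RAP and signals through MYD88 and IRAK kinases to NF-κB and the MAP kinases. IL1RN encodes a secreted antagonist that occupies IL1R1 without signalling, and IL1R2 encodes a decoy that binds the ligand but lacks the signalling domain. IL-18 and IL-33 use their own receptors, with IL-33 binding ST2, the product of IL1RL1, together with IL1RAP. In epithelia IL-1α and IL-33 are held inside the cell and released on damage, whereas IL-1β and IL-18 are cut from precursors, classically by caspase-1.

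Messenger RNA was read near its 3′ end, and the values are raw counts per gene. Libraries held between 2455627 and 4988062 counts, and levels are given as CPM, counts scaled to the TMM-adjusted library size. The floor of 3 counts, up to which a gene with 0 counts may still be present, was 0.619 to 1.22 CPM. This floor and the counting intervals below cover counting error only. JUN itself, the target of the guide, read 25.03, 36.2 and 9.32 CPM in NTC replicates 1 to 3, against 171.5 and 265.5 CPM with sgJUN#1. The groups did not overlap, and the log2 fold change was 3.25 (SE 0.484), which missed the threshold of an adjusted p under 0.05 (edgeR adjusted p = 0.0733). Of 10 mammary epithelial markers all were tested and 0 passed (against 0.206% of all tested genes). KRT5 held 764, 392 and 2048 counts in NTC and 1285 and 424 in sgJUN#1. KRT14 was low, at 4 to 13 counts, and KRT17 held 0, 11 and 27 against 79 and 22 counts. Of 10 leukocyte markers 4 had no count in any library, TYROBP and CD3E among them, and PTPRC held at most 10 counts. CSF1R made up most of the list, at 592 to 920 counts in NTC and 574 and 1136 in sgJUN#1, while CD14 held 29, 4 and 107 against 30 and 12 counts and CD68, a lysosomal protein gene, 23, 20 and 14 against 55 and 45. The summed CPM of the leukocyte list ran from 235.3 to 252.4 in NTC and from 228.99 to 252.6 in sgJUN#1, and that of the epithelial list from 500.9 to 817.7 and from 639.7 to 1433.2. Since these are bulk libraries, more cells with a transcript and more transcript per cell cannot be told apart.

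Of the 10 members, 7 had enough counts to be tested and 0 passed the edgeR threshold, where 0.206% of 13616 tested genes did (in sgJUN#1 0.0808% higher and 0.125% lower). At an unadjusted p under 0.05 there were 4 members (IL1B, IL1R1, IL18 and IL33), against 8.38% of all tested genes, and with DESeq2 1 member was called, where 0.975% of its tested genes were. For 4 of the 7 the groups did not overlap, with IL1B, IL1R1 and IL33 higher and IL18 lower in sgJUN#1. This was so in 25% of all tested genes, made up of 12.2% higher and 12.8% lower. No member was called either with library size alone (0.14% of tested genes called), DESeq2 size factors (0.213%), at least 10 counts in every library (0.152%) or limma-voom (0.147%), nor without NTC replicate 1 (0.0742%), NTC replicate 3 (0.439%), sgJUN#1 replicate 1 (0.224%) or sgJUN#1 replicate 2 (0.169%). The median log2 fold change of the 7 was 0.40, and that of all tested genes was -0.0082. These counts describe the members that passed the expression filter. IL33 passed it through the sgJUN#1 libraries alone, and IL1RN, IL1R2 and IL36G did not pass it, with at most 10 counts in any library.

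**Figure D1:**
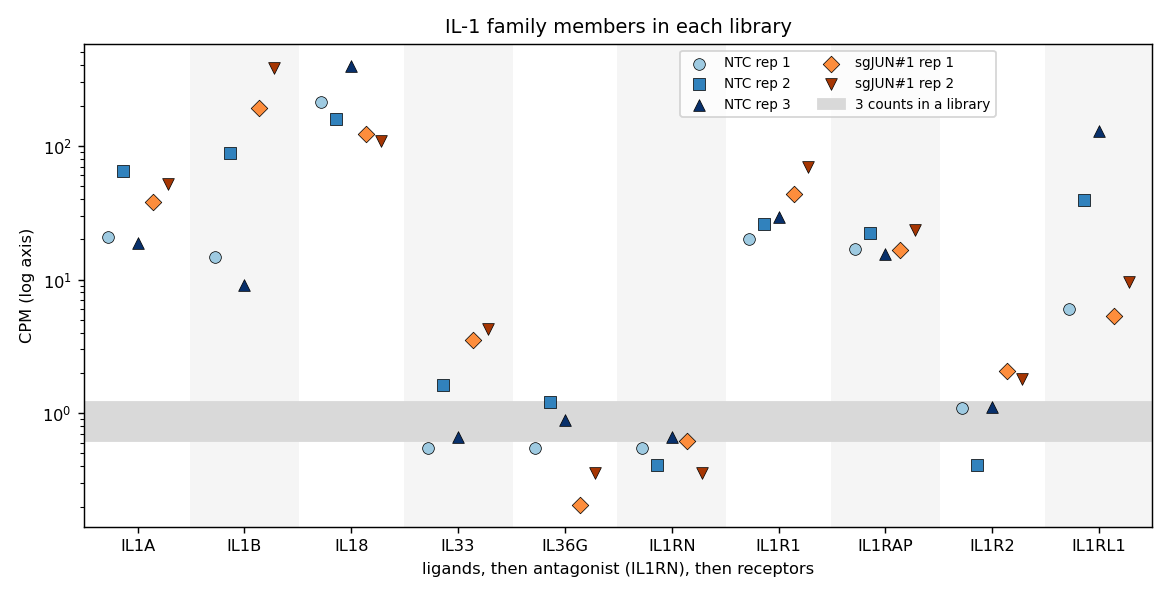
CPM on a log axis for each of the 10 members in each of the 5 libraries, with the grey band marking 3 counts in a library. The sgJUN#1 libraries stand above all NTC libraries for IL1B, IL33, IL1R1 and IL1R2 and below them for IL18 and IL36G. IL33, IL1R2 and IL36G rest on few counts. NTC replicate 2 is high for IL1A and IL1B and NTC replicate 3 for IL18 and IL1RL1.

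IL1B had the largest positive log2 fold change among the tested members. This gene (Entrez 3553, GRCh37 chromosome 2, 113587328 to 113594393, minus strand) encodes the secreted IL-1β. Its counts were 54, 219 and 41 in NTC replicates 1, 2 and 3 and 933 and 1061 in sgJUN#1 replicates 1 and 2. On the CPM scale these were 14.9, 89.1 and 9.09 in NTC and 192.6 and 379.6 in sgJUN#1. Both sgJUN#1 libraries were above every NTC library, and the lower of them was 2.16 times the highest NTC library. The NTC libraries themselves differed 9.80-fold, with replicate 2 at 6.001 times the next. NTC averaged 37.7 ± 44.6 CPM (SD, n = 3) and sgJUN#1 286.1 ± 132.3 CPM (SD, n = 2). The log2 fold change was 2.98 (SE 0.941), with a 95% interval from 0.67 to 5.28 (edgeR adjusted p = 0.469). On log2 CPM the exact permutation test, two-sided, gave p = 0.2, where the smallest possible is 0.1. Without NTC replicate 2, IL1B passed the threshold, with a log2 fold change of 4.58 (SE 0.425, adjusted p = 0.00364 by edgeR), and it was then the 1 member called, where 0.413% of tested genes were. That NTC replicate 2 was higher for IL1B was known when the family was chosen. Leaving it out lowers the mean and spread of NTC, so this fit is not separate support for a difference. The leave-one-out adjusted p-values of IL1B otherwise ran from 0.468 to 1.

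IL1A, the neighbouring ligand gene, overlapped between the groups. IL1A (Entrez 3552, GRCh37 chromosome 2, 113531502 to 113542070, minus strand) encodes IL-1α and lies 45.3 kb from IL1B. NTC replicates 1 to 3 read 20.9, 64.3 and 18.9 CPM, and the sgJUN#1 libraries 37.8 and 52.2 CPM. NTC replicate 2 was the highest library of all 5. NTC averaged 34.7 ± 25.7 CPM (SD, n = 3) and sgJUN#1 45.0 ± 10.2 CPM (SD, n = 2), and the log2 fold change was 0.40 (SE 0.520, adjusted p = 0.883 by edgeR). The 95% interval of the log2 fold change, from -0.81 to 1.62, takes in both a fall and a rise. IL1A came to a log2 fold change of 1.17 without NTC replicate 2 and did not pass (edgeR adjusted p = 0.172).

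The promoter sequences of the 2 neighbours are shown because AP-1, the factor that JUN forms, is known for the heptamer TGANTCA. Each run is the 250 bases before the first RefSeq start of the gene (RefSeq table of GRCh38.p14, placed here on GRCh37 by an exact match), written 5′ to 3′ on the minus strand, and capitals mark TGANTCA. For IL1B the RefSeq start differs from that of the GENCODE range given above, so that the last bases of its run lie inside that range.
IL1B, chr2:113594357-113594606: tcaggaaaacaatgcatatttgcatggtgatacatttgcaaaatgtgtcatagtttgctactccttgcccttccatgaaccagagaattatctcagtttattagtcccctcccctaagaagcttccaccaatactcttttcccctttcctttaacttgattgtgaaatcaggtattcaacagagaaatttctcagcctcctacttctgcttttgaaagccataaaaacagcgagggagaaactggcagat
IL1A, chr2:113542071-113542320: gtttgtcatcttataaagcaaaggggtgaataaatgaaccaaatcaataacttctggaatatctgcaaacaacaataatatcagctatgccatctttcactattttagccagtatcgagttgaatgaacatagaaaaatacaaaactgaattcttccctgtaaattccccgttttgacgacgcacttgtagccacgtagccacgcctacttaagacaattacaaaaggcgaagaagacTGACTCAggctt

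The heptamer reads the same on both strands. IL1A held 1 match in these 250 bases, at bases 12 to 6 before the start, and a second within the first 50 transcribed bases, so that the whole window of 300 bases at this start held 2. IL1B held 0 in its window. Of 35116 RefSeq windows of this length, 7.71% held at least 1 match and 0.52% held 2 or more. Windows were at hand for 9 of the 10 members, 18 windows in all, and 4 of these, from the 3 genes IL1A, IL1RN and IL1RL1, held the heptamer. IL1A has 2 windows, each with 2 matches, which appear to be the same sites seen from different starts. Windows of the same gene are thus not separate, and their number is not to be read against the share of all windows. The windows of IL1R1 and IL33 held 0. The cyclic AMP response element TGACGTCA was in 0 of the 18 windows. It was in only 1.85% of all RefSeq windows, so its absence from so few windows says nothing about the family. These are matches of letters in a short window, and they do not show where a factor was bound in these cells.

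Taken as a ratio within each library, which needs no scaling between libraries, IL1B and IL1A separated the groups. This ratio was chosen after the values were seen. There were 0.711, 1.39 and 0.482 IL1B counts for each IL1A count in NTC replicates 1, 2 and 3 and 5.098 and 7.27 in sgJUN#1 replicates 1 and 2. The 95% counting intervals (exact binomial) of the sgJUN#1 libraries, 4.35 to 6.01 and 6.11 to 8.70, lay above that of NTC replicate 2, 1.12 to 1.71. The mean log2 ratio was -0.36 in NTC and 2.61 in sgJUN#1, a difference of 2.96, with p = 0.1 by an exact permutation test (two-sided), the smallest that 3 against 2 libraries allow. It compares how the balance of the genes differs between libraries and is not a measure of one gene's level against the other's.

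**Figure D2:**
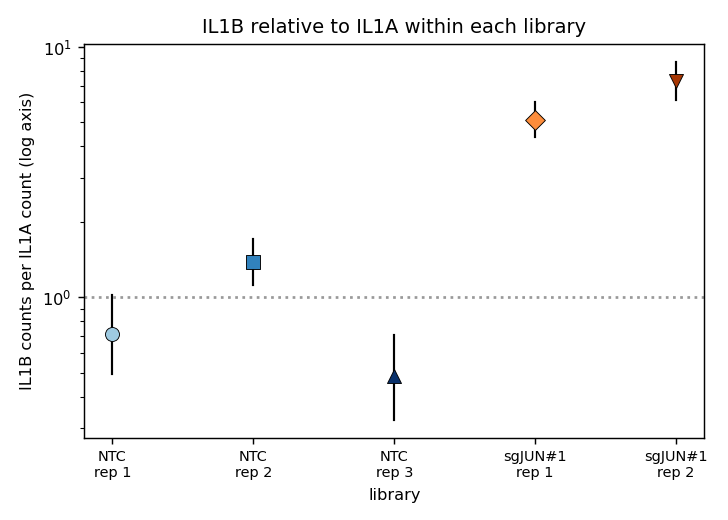
IL1B counts for each IL1A count in each library, on a log axis, with 95% exact binomial intervals as bars. The sgJUN#1 libraries, at 5.098 and 7.27, stand above the NTC libraries, of which replicate 2 is the highest at 1.39.

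The antagonist IL1RN was not measured above the floor. It held 2, 1 and 3 counts in NTC and 3 and 1 in sgJUN#1, at or under the floor in every library, so that no fold change is given. A ratio of ligand to antagonist had been planned and rests on these few counts. IL1B counts for each IL1RN count came to 27, 219.0 and 13.7 in NTC and 311.0 and 1061.0 in sgJUN#1, with 95% counting intervals as wide as 190.0 to 41900.0 in sgJUN#1 replicate 2. The exact two-sided permutation test of its log2 values gave p = 0.2, and p = 0.3 with IL1A and IL1B added together.

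IL18 was lower in both sgJUN#1 libraries. IL18 (Entrez 3606, chromosome 11, 112013976 to 112034819) encodes a ligand that epithelia make constitutively as a precursor. NTC replicates 1 to 3 read 212.1, 158.3 and 395.9 CPM, and the sgJUN#1 libraries 123.4 and 109.1 CPM. The groups did not overlap, and NTC replicate 3 was the highest library. The log2 fold change was -1.14 (SE 0.361), with a 95% interval from -1.96 to -0.32 (edgeR adjusted p = 0.409). Without NTC replicate 3 it was -0.67 (edgeR adjusted p = 0.326). On GRCh37 the whole of IL18 lies inside a protein-coding gene on the opposite strand (ENSG00000255292), and whether the counting used strand was not given in the sources used here.

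IL33 and IL36G, the other epithelial ligands, were low. IL33 (Entrez 90865, chromosome 9) had 2, 4 and 3 counts in NTC and 17 and 12 in sgJUN#1, so that the sgJUN#1 libraries were above all NTC libraries. Pooled over the libraries of a group this was 9 against 29 counts, a ratio per sequenced count of 4.47 (95% exact interval 2.06 to 10.7, counting error only). The log2 fold change was 2.11 (SE 0.589, adjusted p = 0.302 by edgeR). It rests on NTC counts at or under the floor of 3 in replicates 1 and 3. IL33 entered the test through the sgJUN#1 libraries alone. IL36G (Entrez 56300, chromosome 2), a ligand of squamous epithelium, had 2, 3 and 4 counts in NTC and 1 in each sgJUN#1 library. Its pooled counts were 9 against 2, a ratio of 0.308 (95% exact interval 0.0324 to 1.49), so that a difference was not detectable at this depth.

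Among the receptors, IL1R1 was higher in both sgJUN#1 libraries and had the smallest SE of the 3 that were tested. IL1R1 (Entrez 3554, chromosome 2, 102681004 to 102796334) encodes the signalling receptor of IL-1α and IL-1β. NTC replicates 1 to 3 read 20.1, 26.05 and 29.5 CPM, and the sgJUN#1 libraries 43.3 and 69.4 CPM. Here the NTC libraries were close together, with the highest at 1.47 times the lowest, and both sgJUN#1 libraries were above them. NTC averaged 25.2 ± 4.77 CPM (SD, n = 3) and sgJUN#1 56.4 ± 18.4 CPM (SD, n = 2), and the log2 fold change was 1.15 (SE 0.271) with a 95% interval from 0.54 to 1.76. It did not pass the threshold with edgeR (adjusted p = 0.213). It passed with DESeq2 (log2 fold change 1.17, adjusted p = 0.0487), with a replicate block (adjusted p = 0.0396 by edgeR) and with no filter (edgeR adjusted p = 0.0256), where 0.975%, 0.756% and 0.756% of the tested genes did. The labels do not say that replicate numbers mark a shared batch, and with no filter JUN itself did not pass (edgeR adjusted p = 0.218). Leaving out single libraries moved its log2 fold change from 0.79 to 1.46, the lowest value being that without sgJUN#1 replicate 2, where 1 sgJUN#1 library stands alone.

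IL1RAP encodes the co-receptor that IL1R1 shares with the IL-33 receptor. The NTC libraries read 16.8, 22.4 and 15.5 CPM and those of sgJUN#1 16.7 and 23.6 CPM, and the groups overlapped. Its log2 fold change was 0.15 (SE 0.283), with a 95% interval from -0.49 to 0.78 (edgeR adjusted p = 0.931). Without sgJUN#1 replicate 2 its sign turned, to -0.11. The decoy receptor IL1R2 had 4, 1 and 5 counts in NTC and 10 and 5 in sgJUN#1, a pooled ratio of 2.08 (95% exact interval 0.875 to 5.18), and a difference was not detectable at this depth.

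IL1RL1 had the largest ratio of the highest to the lowest NTC library among the members. IL1RL1 (Entrez 9173, chromosome 2, 102927962 to 102968497) encodes ST2 and lies in the same receptor cluster as IL1R1, 131.6 kb from it. Its counts were 22, 97 and 587 in NTC replicates 1, 2 and 3 and 26 and 27 in sgJUN#1, or 6.05, 39.5 and 130.2 CPM against 5.37 and 9.66 CPM. NTC replicate 3 was thus 21.5 times NTC replicate 1, and NTC replicate 1 lay between the sgJUN#1 libraries. The log2 fold change was -3.03 (SE 1.25, adjusted p = 0.601 by edgeR), and without NTC replicate 3 it was -1.59.

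IL18R1, the gene of the IL-18 receptor chain, is not among the 10 and overlaps IL1RL1. It held 33, 110 and 626 counts in NTC and 57 and 55 in sgJUN#1, which is 1.5, 1.13 and 1.07 times the counts of IL1RL1 in NTC and 2.19 and 2.04 times in sgJUN#1. On GRCh37 the annotated range of IL18R1 (chromosome 2, 102927989 to 103015237) covers 99.9% of IL1RL1 on the same strand, so that a read in IL1RL1 may have been counted for both. After IL1RL1 was subtracted, IL18R1 was left with 11, 13 and 39 counts in NTC and 31 and 28 in sgJUN#1, which are 3.03, 5.29 and 8.65 CPM against 6.40 and 10.0 CPM. This subtraction was chosen after the values were seen, and the remainder overlapped between the groups. Without it, IL18R1 had a log2 fold change of -2.07 (SE 1.07, adjusted p = 0.680 by edgeR), and how many of its reads were also counted for IL1RL1 was not tested.

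**Figure D3:**
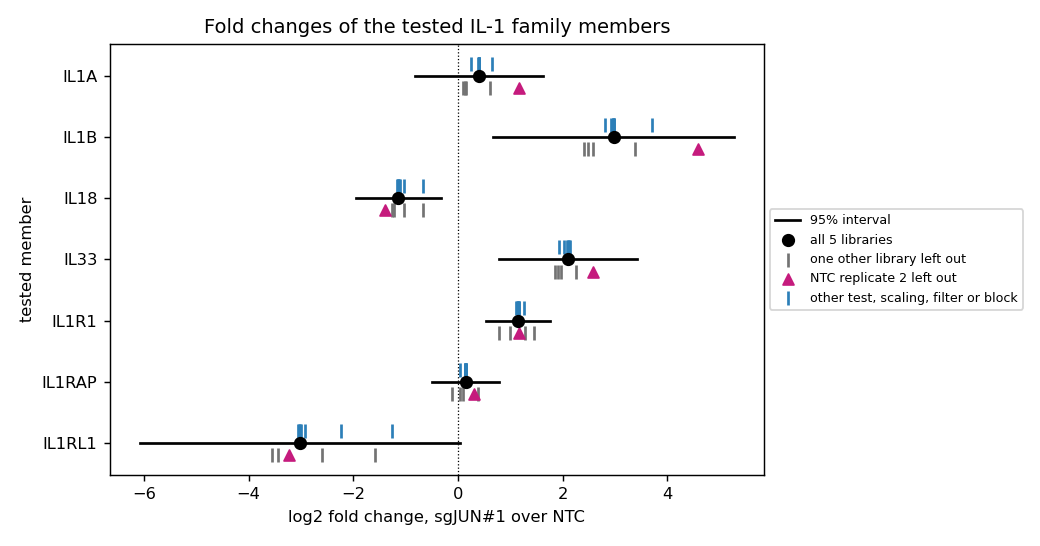
Log2 fold changes of sgJUN#1 over NTC for the 7 tested members, with the value from all 5 libraries as a black point, its 95% interval as a bar, and the values under each alternative as ticks. IL1B moves to 4.58 without NTC replicate 2 (triangle), IL1R1 stays between 0.79 and 1.46, and of the values under the alternatives only those of IL1RAP lie on both sides of 0. The 95% intervals of IL1A, IL1RAP and IL1RL1 include 0.

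The NTC libraries were uneven in these genes, and not all in the same library. Among the 10132 tested genes with a mean of at least 10 CPM in NTC the median coefficient of variation between the NTC libraries was 18.3%. It was 118.0% for IL1B, 74.0% for IL1A, 110.0% for IL1RL1 and 48.8% for IL18, and 99.9%, 99.0%, 99.9% and 96.2% of those genes had a lower one. IL1R1 at 18.9% and IL1RAP at 20.0% were near the median. NTC replicate 2 was the highest NTC library for IL1A and IL1B, as for IL1RAP and IL33, and NTC replicate 3 for IL18, IL1RL1 and IL1R1. Over all tested genes NTC replicates 1, 2 and 3 were the highest NTC library in 31.2%, 29.3% and 39.6%. JUN was also highest in NTC replicate 2 and lowest in NTC replicate 3, at 36.2 and 9.32 CPM. The part of these library differences in the fold changes of the members was not tested beyond leaving out each library.

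**Figure D4:**
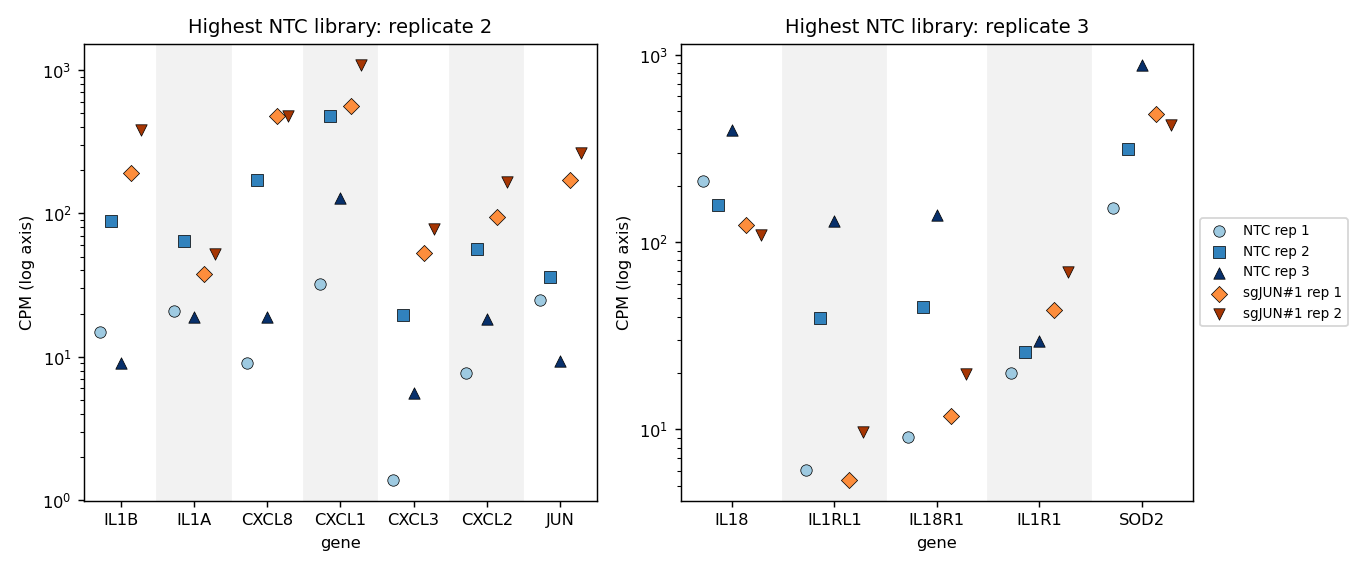
CPM on a log axis in each library for chosen genes whose highest NTC library was replicate 2 (left: IL1B, IL1A, CXCL8, CXCL1, CXCL3, CXCL2 and JUN) and replicate 3 (right: IL18, IL1RL1, IL18R1, IL1R1 and SOD2). Of the 7 genes on the left, NTC replicate 2 is above both sgJUN#1 libraries for IL1A and below both for the others, and on the right IL1RL1 and IL18R1 run from 6.05 and 9.08 CPM to 130.2 and 138.9 CPM between NTC libraries.

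Genes known to respond to IL-1 signalling were examined as a list of 18, of which 14 were tested. None passed the edgeR threshold (0 of 14, against 0.206% of all tested genes), 5 had an unadjusted p under 0.05 (against 8.38%), and DESeq2 called 1, CSF3 (against 0.975%). The median log2 fold change was 0.73, and the groups did not overlap in 6, all higher in sgJUN#1 (against 12.2% of all tested genes). The neutrophil-attracting chemokines CXCL1, CXCL2, CXCL3 and CXCL8 had log2 fold changes of 1.96 (SE 0.983), 2.29 (SE 0.737), 2.99 (SE 0.786) and 2.89 (SE 1.12), with edgeR adjusted p-values from 0.361 to 0.670. Like IL1B, all 4 were highest in NTC replicate 2 among the NTC libraries, at 3.05 to 9.11 times the next. Without NTC replicate 2, 4 of the list were called (against 0.413% of all tested genes), CXCL2, CXCL3, CXCL8 and CSF3, with edgeR adjusted p-values of 0.0202, 0.0126, 0.00147 and 0.0324. NTC replicate 2 was the highest NTC library for each of these, so leaving it out lowers their NTC mean, and the calls are not separate support. CSF3, which encodes the neutrophil growth factor G-CSF, read 39.6, 126.6 and 52.1 CPM in NTC against 149.2 and 245.4 CPM with sgJUN#1, and is named here after its values were seen. It also passed with DESeq2 (adjusted p = 0.0414) and with the replicate block (edgeR adjusted p = 0.0396). PTGS2, the inducible cyclooxygenase, had 0, 3 and 2 counts in NTC and 19 and 16 in sgJUN#1 (edgeR adjusted p = 0.213), passed with no filter (edgeR adjusted p = 0.0213), and was likewise named after its values were seen. Like IL33, it passed the expression filter through the sgJUN#1 libraries alone.

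In the other 8 tested genes of the list the groups overlapped, with log2 fold changes from -0.46 (ICAM1, a leukocyte adhesion molecule) to 0.86. Those given here were named after their values were seen. NFKBIA, the NF-κB inhibitor that NF-κB itself induces, had a log2 fold change of 0.15 (SE 0.219, 95% interval -0.35 to 0.64), and TNFAIP3, which encodes the feedback inhibitor A20, 0.86 (SE 0.758, 95% interval -0.97 to 2.69). SOD2, the mitochondrial superoxide dismutase, had -0.0035 (SE 0.683), with NTC replicate 3 at 5.79 times NTC replicate 1. IL6, LCN2 and CSF2 had at most 3 counts in any library.

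Genes that cut and release the ligands formed a list of 16, of which 11 were tested, with a median log2 fold change of 0.30. Of these, 0 passed with edgeR or DESeq2 (against 0.206% and 0.975% of all tested genes). There were 3 at an unadjusted p under 0.05 (against 8.38% of all tested genes), and in 5 the groups did not overlap, all higher in sgJUN#1 (against 12.2%). CAPN2, a calpain of the class that cuts pro-IL-1α, averaged 264.7 ± 45.7 CPM over NTC (SD, n = 3) and 391.7 ± 13.5 CPM over sgJUN#1 (SD, n = 2), and its log2 fold change was 0.57 (SE 0.204, adjusted p = 0.474 by edgeR). S100A13, which takes part in the export of IL-1α, had 0.44 (SE 0.189), CASP8, the initiator caspase, 0.41 (SE 0.231), and GSDMD, which encodes the pore protein gasdermin D, -0.42 (SE 0.302), with edgeR adjusted p-values from 0.579 to 0.759. CASP1, the enzyme that matures IL-1β, averaged 18.3 ± 2.90 CPM over NTC (SD, n = 3) and 19.6 ± 3.17 CPM over sgJUN#1 (SD, n = 2), with a 95% interval of its log2 fold change from -0.52 to 0.67. PYCARD, the inflammasome adaptor, had no count in any library, and NLRP3, an inflammasome sensor, had between 3 and 13 counts.

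Of 20 genes of receptor signalling, 19 were tested and 0 passed with edgeR or DESeq2 (against 0.206% and 0.975% of all tested genes). At an unadjusted p under 0.05 there were 0 of the 19 (against 8.38%). The smallest of their log2 fold changes was -0.31, the median 0.076 and the highest 0.57. MYD88, the adaptor of the IL-1 receptors, had 0.13 (SE 0.255, 95% interval -0.44 to 0.70). The largest differences among those with at least 10 CPM on average were those of TAB3 (0.40), IRAK4 (0.34), IKBKG (-0.27) and MAP3K7 (0.26), with edgeR adjusted p-values from 0.723 to 0.861.

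Of the 12 further family genes outside the 10, 5 were tested and 0 passed with edgeR or DESeq2 (against 0.206% and 0.975% of all tested genes). There was 1 at an unadjusted p under 0.05 (against 8.38%). That was IL18BP, which encodes the secreted inhibitor of IL-18, averaging 37.9 ± 7.08 CPM over NTC (SD, n = 3) and 25.6 ± 2.298 CPM over sgJUN#1 (SD, n = 2), and its log2 fold change was -0.57 (SE 0.247, adjusted p = 0.585 by edgeR). NUMA1 overlaps IL18BP on the opposite strand. The ligands IL36A, IL36B, IL37 and IL1F10 and the antagonist IL36RN, which share the chromosome 2 cluster of IL1A and IL1B, had at most 2 counts in any library, so that of the ligand and antagonist genes there only IL1A and IL1B passed the filter. SIGIRR, a single-domain inhibitory receptor, had a log2 fold change of 0.19 (SE 0.400).

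The genes whose pattern over the 5 libraries was most like that of a member were found by the root-mean-square (RMS) difference of log2 CPM after each gene was centred on its own mean. For IL1B these were BDKRB1 at 0.35, INSC at 0.54, CHRNA9 at 0.64, JUN at 0.66 and CXCL8 at 0.71, among 13615 genes with a median RMS of 2.06. BDKRB1, the bradykinin B1 receptor gene, had 3, 12 and 3 counts in NTC and 75 and 76 in sgJUN#1. It would not have passed the expression filter on its NTC libraries. Replicates 1 and 3 of these were at the floor, where the prior count bears on the log2 CPM. For IL1A they were NECTIN1, KRT34, FRMD6-AS2, TMEM171 and DOCK2, from 0.11 to 0.16, where the median was 0.74. JUN was thus among the 5 genes nearest to IL1B and not among the 5 nearest to IL1A. The difference between the groups enters this measure, and JUN is the target of the guide. The log2 fold changes were 3.25 for JUN, 2.98 for IL1B and 0.40 for IL1A. The order does not follow the fold change alone, since INSC (2.60) and CHRNA9 (1.76) were nearer to IL1B than JUN was. In NTC replicates 1 to 3, IL1B read 14.9, 89.1 and 9.09 CPM and JUN 25.03, 36.2 and 9.32 CPM. A link between JUN and IL1B was not tested here. The study reports separate experiments in which JUN expressed from a cDNA raised IL1B. With 5 libraries in 2 groups, a small difference says only that the levels ran in parallel in these libraries.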

How the data were processed

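QuantSeq 3′ forward libraries of 3 NTC and 2 sgJUN#1 samples were analysed. The submitters' processing notes name Cutadapt 4.2, Bowtie2 2.3.5.1 and hg19, and the methods of the study name countOverlaps for its RNA-sequencing. The deposited values are raw counts per Entrez gene, whole numbers that the authors did not normalise. Annotation, strand, multiple alignments and molecular identifiers were not given in the sources used here. Reads in overlapping genes may be counted for each.

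Symbols came from NCBI RefSeq (23308 of 23459 genes), positions from GENCODE v44 on GRCh37, the assembly of hg19. The quasi-likelihood test of edgeR 4.0.16 (R 4.3.3; TMM, filterByExpr, robust, group as the only term) was fitted on all 5 libraries and adjusted by Benjamini-Hochberg over 13616 tested genes, with a threshold of 0.05; it was tested on simulated data. The SE is the log2 fold change divided by the root of F, and 95% intervals use the t distribution with the fitted degrees of freedom. The study used DESeq2, here an alternative (version 1.42.0), as was limma-voom (limma 3.58.1). Log2 CPM for the pattern search used a prior count of 2.

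The members and lists were chosen with earlier results of these data known. Named were all members, JUN, per list the genes past the threshold and otherwise up to 4 with the largest absolute log2 fold change and at least 10 CPM on average, and the 5 genes nearest to IL1B and to IL1A. Any other gene was named after its values were seen. No pair of libraries agreed within counting noise (chi-square per degree of freedom at least 7.62).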

Additional observations from a re-analysis of the deposited data

How the results depend on the processing

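The 7 tested members kept the sign of their log2 fold change in each of 12 alternatives (11 for IL33), except IL1RAP, which was -0.11 without sgJUN#1 replicate 2 and at most 0.39 without another library. The count of members called was 1 with DESeq2, with no filter and with the replicate block (IL1R1 in each), and ran from 0 to 1 across the fits that left out 1 library (IL1B without NTC replicate 2). The count of IL-1 response genes called was 1 with DESeq2 and the replicate block (CSF3) and 1 with no filter (PTGS2), and ran from 0 to 4 without single libraries. The cause was not tested. Over all genes 28 were called, 136 with DESeq2, 148 with no filter, 18 with at least 10 counts in every library, 103 with the replicate block, and 10 to 57 without single libraries. JUN passed with DESeq2 (3.24), limma-voom (3.47) and the replicate block (2.82), and ran from 2.85 to 3.68 without single libraries, passing without NTC replicate 2 or 3. The difference in log2 IL1B level ran from 2.89 to 4.54, that of IL1B per IL1RN from 2.85 to 4.90 and that of IL1A plus IL1B per IL1RN from 1.88 to 3.68.

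The labels number replicates 1 and 2 in both groups without saying that a number marks a shared batch. The names of the count columns are consecutive between the groups for replicate 1, and again for replicate 2, without a stated meaning. The differences between replicates 1 and 2 in NTC and in sgJUN#1 correlated at 0.0146 over genes, and the numbers were not taken as pairs in the main fit. A correlation over all genes cannot exclude a pairing that bears on some of them, and the replicate block is given as an alternative. In the block fit NTC replicate 3 bears on no contrast. Fits with 1 sgJUN#1 library assume that it varies like NTC. At 1 to 10 counts per library, IL1RN, IL1R2 and IL36G are limited by depth.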

Other observations

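IL1RAPL1 and IL1RAPL2, receptor-like family genes known mainly from neurons, were counted in every library. IL1RAPL1 held 464, 338 and 567 counts in NTC and 727 and 363 in sgJUN#1. IL1RAPL2 held 241, 155 and 502 counts in NTC and 202 and 194 in sgJUN#1. Their log2 fold changes were 0.10 (SE 0.187) and -0.55 (SE 0.316), and neither passed (edgeR adjusted p = 0.925 and 0.701). On GRCh37 these genes span 1369.3 kb and 1200.9 kb of chromosome X, where the 10 members span between 7.1 kb and 145.7 kb. Whether the counting took in introns was not given in the sources used here, and the part of gene span in these counts was not tested.

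Among the markers of mammary epithelium EPCAM, which encodes an epithelial adhesion molecule, had 86, 18 and 105 counts in NTC and 697 and 158 in sgJUN#1. Its log2 fold change was 2.44 (SE 0.514), and it did not pass (edgeR adjusted p = 0.210). The list as a whole had a median log2 fold change of 0.11, with 6 of 10 genes above 0, and KRT14 (-1.16), KRT5 (-0.40), KRT8 (-0.36) and TP63 (-0.11) below 0.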
